A study of Mus musculus with 13 samples.

Results

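The genes described here are 10 genes of MHC class I antigen presentation: B2m, H2-K1, H2-D1, Psmb8, Psmb9, Psmb10, Tap1, Tap2, Tapbp and Nlrc5. They were chosen by gene symbol, with earlier results of these data known, from a deposited read count table of 24495 genes. All 10 were in the table and all 10 were among the 14607 genes tested. Psmb9 reached the level of the filter on low counts in 9 of the 13 libraries, which were the 3 untreated ones and 6 of the 10 from day 5, and the other 9 genes reached it in all 13.

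MHC class I molecules carry peptides from inside the cell to its surface, where CD8+ T cells read them. The proteasome cuts proteins into peptides, the TAP transporter pumps these into the endoplasmic reticulum, and tapasin helps load them onto a heavy chain (H2-K1 or H2-D1) that is paired with beta-2-microglobulin. Interferons raise the whole set of genes in most tissues, and pluripotent cells are known for low class I levels.

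RNA was sequenced from bulk cultures of mouse embryonic fibroblasts (MEFs, embryonic day 12.5, strain background V6.5 129XBI/6) that lack Tet2 and carry the OKSM reprogramming factors (Oct4, Klf4, Sox2 and Myc) under a doxycycline-driven transactivator. Tet2 encodes a dioxygenase that oxidises 5-methylcytosine in DNA. The 3 untreated libraries (replicates 1, 2 and 100) came from MEFs that were not reprogrammed, and the series text leaves unclear whether these hold the empty vector. The 10 other libraries came from day 5 of reprogramming after infection with a pMXs retrovirus, which was empty in the pMXs group (3 libraries, replicates 2, 100 and 250), held wild-type Tet2 in the Tet2-WT group (3 libraries, replicates 1, 2 and 250) or a stalling mutant in the Tet2-E group (4 libraries, replicates 1, 2, 100 and 250). Untreated and day 5 cells alike were in 5% oxygen. Day 5 cells grew with doxycycline at 2 µg/mL, LIF at 1000 U/mL, 1 µM PD0325901 (an inhibitor of the kinase MEK) and 3 µM CHIR99021 (an inhibitor of the kinase GSK3). They sat on mitomycin-treated feeder MEFs, for which the labels name no removal, so the comparison of pMXs with untreated MEFs joins the factors, the vector, the feeders and the medium, which cannot be told apart. Nothing in the labels says that replicates were separate cultures, so p-values measure the spread between these libraries, which may be technical.

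Tet2 itself was at 37.8 to 48.3 counts-per-million (CPM, scaled by TMM) in the untreated and 39.1 to 58.8 CPM in the pMXs libraries, against 1180 to 1240 CPM in Tet2-WT and 581 to 1400 CPM in Tet2-E. Reads of the null allele outside its deleted bases may count here. Pou5f1 (Oct4) ran from 1.27 to 3.16 CPM untreated and from 183 to 285 CPM at day 5, so both genes followed the labels. The summed level of 13 fibroblast markers was 45700 to 48400 CPM in untreated MEFs, 22500 to 26300 in pMXs, 17100 to 18300 in Tet2-WT and 20500 to 21700 in Tet2-E, and 12 of the 13 fell in pMXs against untreated. Of all genes tested 35% were lower and 35% higher in that comparison. The summed level of 10 epithelial markers was 2.87 to 4.23 CPM untreated and 233 to 414 CPM at day 5. That of 12 macrophage markers was 6.25 to 7.06 CPM untreated, 81.2 to 94.7 in pMXs, 213 to 310 in Tet2-WT and 93.7 to 127 in Tet2-E, although Adgre1, Tyrobp, C1qa and C1qb were at 0 in all libraries of both pMXs and Tet2-WT. At day 5 nearly all of that sum was Laptm5 (mean 80 CPM in pMXs, 251 in Tet2-WT and 96.1 in Tet2-E). In untreated MEFs Laptm5 was a small part of it, at a mean of 0.263 CPM. Of the 6 macrophage markers tested, Laptm5, Itgam and Cd68 rose and Lyz2 (from 2.06 to 0.108 CPM), Cd53 (from 1.21 to 0 CPM) and Csf1r (from 1.09 to 0.165 CPM) fell in pMXs against untreated. Lymphoid and NK markers summed to 0.761 to 1.65 CPM and dendritic cell markers to 2.96 to 4.94 CPM over all libraries, with Cd3e, Ncr1, Itgax and Cd209a at 0 in every one. Endothelial markers summed to 24.8 to 29.8 CPM untreated and 77.2 to 92.3 CPM at day 5, of which Tek was most (mean 3.34 CPM untreated and 73.9 CPM in pMXs), while Flt1 (from 17.3 to 4.5 CPM) and Esam (from 2.15 to 0.452 CPM) fell in pMXs. The part of these other cells in the results below was not tested. Among day 5 libraries, levels of some of the 10 genes also moved with the replicate numbers, as given below for each gene they touch.

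The promoters of 4 of the genes are shown because the 3 class I chain genes share 1 spacing of motifs while Tap1 shares its DNA with Psmb9. Each is RefSeq's window from 250 bases before to 50 after the annotated start, on GRCm38.p6, printed 5′ to 3′ on the gene's strand. Capitals mark matches, on either strand, to the motifs AANNGAAA (core of interferon regulatory factor sites), TGACG (part of the X box, read by CREB/ATF factors), CCAAT (Y box, read by NF-Y), GGGNNTTCC (kappaB, read by NF-kappaB) and TATAAA. No matches overlap. The windows lie at chr2:122147437-122147736 (plus strand) for B2m, chr17:34000298-34000597 (minus) for H2-K1, chr17:35262844-35263143 (plus) for H2-D1 and chr17:34187306-34187605 (plus) for Tap1.
B2m: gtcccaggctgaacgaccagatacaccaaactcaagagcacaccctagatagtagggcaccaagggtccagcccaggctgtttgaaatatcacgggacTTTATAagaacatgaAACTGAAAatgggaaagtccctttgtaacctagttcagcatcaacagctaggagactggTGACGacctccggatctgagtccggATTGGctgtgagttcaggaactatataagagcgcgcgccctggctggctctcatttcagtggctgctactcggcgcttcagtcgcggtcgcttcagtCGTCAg
H2-K1: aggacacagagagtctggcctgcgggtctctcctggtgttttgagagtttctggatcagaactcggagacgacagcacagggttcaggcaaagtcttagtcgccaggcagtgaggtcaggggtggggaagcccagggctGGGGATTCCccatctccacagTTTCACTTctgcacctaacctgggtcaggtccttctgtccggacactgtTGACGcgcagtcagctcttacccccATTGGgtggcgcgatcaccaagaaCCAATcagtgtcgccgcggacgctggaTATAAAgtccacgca
H2-D1: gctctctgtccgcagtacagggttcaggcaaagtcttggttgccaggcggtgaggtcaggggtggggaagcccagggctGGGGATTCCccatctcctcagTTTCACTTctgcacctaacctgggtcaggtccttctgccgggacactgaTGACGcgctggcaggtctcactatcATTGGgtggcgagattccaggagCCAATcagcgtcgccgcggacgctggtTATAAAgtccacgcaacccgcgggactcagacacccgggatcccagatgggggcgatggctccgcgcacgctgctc
Tap1: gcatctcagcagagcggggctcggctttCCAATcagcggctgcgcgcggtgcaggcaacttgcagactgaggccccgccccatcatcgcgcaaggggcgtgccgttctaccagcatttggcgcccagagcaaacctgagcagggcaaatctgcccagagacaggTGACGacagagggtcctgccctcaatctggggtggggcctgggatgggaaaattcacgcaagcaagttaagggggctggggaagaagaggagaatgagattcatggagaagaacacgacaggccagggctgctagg
In B2m, H2-K1 and H2-D1 a TGACG is followed by a CCAAT on the other strand (printed ATTGG), with 25 bases from the start of one to the start of the other. A pair so spaced was in 31 of all 32851 windows (0.0944%), and in 3 of the 8 windows of the genes described here. The spacing was chosen after these windows were seen. Each of the 3 also held AANNGAAA (23.9% of all windows) and TATAAA (13.6%), and both heavy chain windows held GGGNNTTCC (5.82%). The B2m window differed from both in holding no GGGNNTTCC and in having its AANNGAAA and TATAAA on the opposite strands, with TATAAA upstream of the other matches. The H2-K1 and H2-D1 windows were identical at 211 of 239 aligned bases (88.3%), and the table holds a second H2-K1 window that was not used.

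The Tap1 window shares 275 bases with that of Psmb9 (chr17:34187281-34187580, minus strand), since these genes start next to each other and run apart. The pair held one TGACG and one CCAAT in common, at another spacing. Among all windows 20.8% held TGACG and 37.4% CCAAT. CG dinucleotides numbered 14 in B2m and in H2-K1, 19 in H2-D1, 15 in Tap1, 17 in Psmb9, 11 in Psmb8 and in Tapbp and 3 in Psmb10, beside a median of 7 over all windows. Tap2 and Nlrc5 were not matched in the promoter table. These matches describe letters only, and no binding or methylation was measured here.

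Reprogramming went with lower levels of 7 of the 10 genes. In pMXs cultures at day 5, Tap2, Psmb8, Psmb9, Tapbp, B2m, H2-D1 and Psmb10 fell against untreated MEFs (edgeR's quasi-likelihood test, adjusted p under 0.05 over all genes tested), and none rose. Of all genes tested 35% were lower and 35% were higher by the same rule. The median log2 change of the 10 genes was -0.68, beside 0 over all genes tested. In bulk cultures fewer cells of a type and less RNA per cell cannot be told apart.

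**Figure D1:**
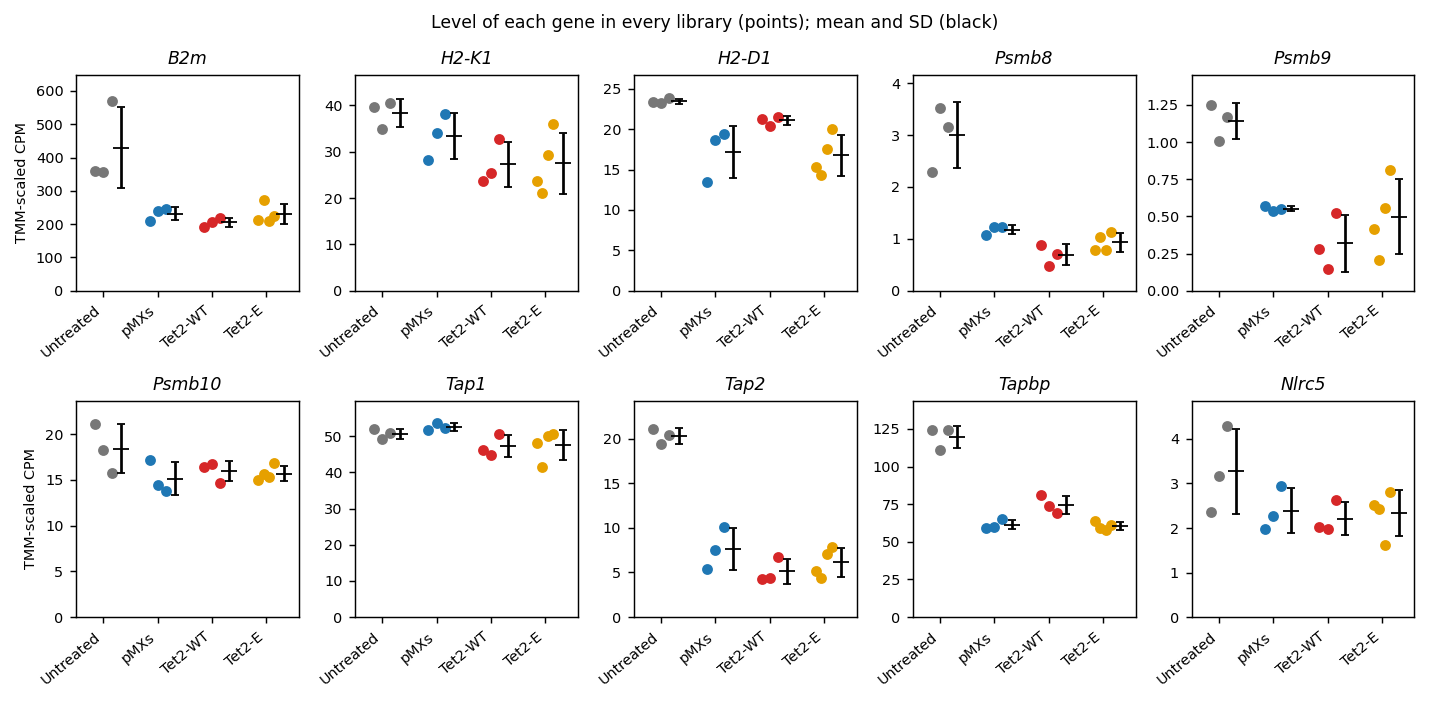
Level of each of the 10 genes in every library (points, in TMM-scaled CPM on linear axes from 0), by group, with the mean and SD in black (n = 3, 3, 3 and 4). Tap2, Psmb8, Psmb9, Tapbp, B2m and H2-D1 lie lower in all 10 day 5 libraries than in the 3 untreated ones, while Tap1 lies between 41.5 and 53.7 CPM throughout. The share of all genes tested that separate in this way is not given here.

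Of the chains that form the complex at the surface, B2m encodes the light chain shared by all class I molecules. Values are given below in the order of the replicate numbers above. B2m was at 360, 358 and 571 CPM in untreated MEFs, 209, 238 and 246 CPM in pMXs, 191, 207 and 219 CPM in Tet2-WT and 212, 274, 209 and 223 CPM in Tet2-E. All 10 day 5 libraries lay below the 3 untreated ones, of which replicate 100 stood highest, and the day 5 groups overlapped. B2m fell by 0.90 ± 0.16 (SE) on the log2 scale in pMXs against untreated (edgeR, adjusted p = 0.000131).

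H2-K1, a classical heavy chain, was at 39.7, 34.9 and 40.5 CPM untreated, 28.3, 34 and 38.2 CPM in pMXs, 23.6, 25.5 and 32.8 CPM in Tet2-WT and 23.8, 21, 29.2 and 36 CPM in Tet2-E. The pMXs libraries overlapped the untreated ones, and the log2 difference of -0.20 ± 0.17 did not pass (edgeR, adjusted p = 0.326). It passed with the set of replicate numbers as a term, at -0.34 (adjusted p = 0.0121). H2-D1, the other classical heavy chain, was at 23.3, 23.2 and 23.8 CPM untreated, 13.5, 18.7 and 19.4 CPM in pMXs, 21.3, 20.4 and 21.5 CPM in Tet2-WT and 15.3, 14.3, 17.5 and 20 CPM in Tet2-E. Every day 5 library was below every untreated one, and H2-D1 fell by 0.44 ± 0.13 in pMXs (edgeR, adjusted p = 0.00758). Class I heavy chains are near-identical copies, and how the authors' counting dealt with reads that match several is not given in the sources used here, so the values of H2-K1 and H2-D1 are uncertain.

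The immunoproteasome subunits replace those of the standard proteasome and change which peptides are cut. Psmb8 was at 2.29, 3.53 and 3.16 CPM untreated (55 to 70 reads), 1.08, 1.23 and 1.23 CPM in pMXs (17 to 32 reads), 0.891, 0.485 and 0.717 CPM in Tet2-WT (13 to 19 reads) and 0.786, 1.04, 0.784 and 1.14 CPM in Tet2-E (15 to 31 reads). The untreated group did not overlap any day 5 group, and Psmb8 fell by 1.33 ± 0.25 in pMXs (edgeR, adjusted p = 0.000195).
Psmb9 was at 1.25, 1.01 and 1.17 CPM untreated (20 to 30 reads), 0.571, 0.536 and 0.548 CPM in pMXs (8 to 14 reads), 0.281, 0.149 and 0.525 CPM in Tet2-WT (4 to 11 reads) and 0.419, 0.208, 0.56 and 0.81 CPM in Tet2-E (3 to 22 reads). Every day 5 value was again below every untreated one. Psmb9 fell by 1.05 ± 0.39 in pMXs (edgeR, adjusted p = 0.0237), a call that was lost with DESeq2 (adjusted p = 0.0568), within either set of replicate numbers (adjusted p = 0.112 and 0.0504), and without untreated replicate 1, pMXs replicate 100 or pMXs replicate 250 (0.0634, 0.0741 and 0.0535).
Psmb10, the last of these subunits, was at 21.1, 18.3 and 15.8 CPM untreated, 17.2, 14.4 and 13.8 CPM in pMXs, 16.4, 16.7 and 14.7 CPM in Tet2-WT and 15, 15.6, 15.3 and 16.8 CPM in Tet2-E. The groups overlapped. Psmb10 fell by 0.28 ± 0.12 in pMXs (edgeR, adjusted p = 0.0378). This call was lost within either set of replicate numbers (-0.19 and -0.16, adjusted p = 0.236 and 0.331) and without untreated replicate 1 or 2 or pMXs replicate 100 or 250 (0.195, 0.0684, 0.127 and 0.134), and in a fit of these 2 groups alone (0.108).

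Each immunosubunit was also set against the standard subunit it replaces, as reads per exon base (gene lengths from GENCODE M21, a newer build than the counts). Psmb8 stood at 2.02 to 3.98% of Psmb5 in untreated MEFs, 0.968 to 1.33% in pMXs, 0.44 to 0.781% in Tet2-WT and 0.693 to 1.15% in Tet2-E. Psmb9 stood at 0.503 to 0.665% of Psmb6 untreated, 0.253 to 0.29% in pMXs, 0.0728 to 0.282% in Tet2-WT and 0.113 to 0.398% in Tet2-E. Psmb10 made up a far larger share of its partner Psmb7, at 36.2 to 42% untreated and 20.5 to 26.8% at day 5. For all 3 pairs the untreated libraries lay above every day 5 library. None of the 3 standard subunits passed as lower. Psmb7 rose from 42.3 ± 3.17 CPM (SD, n = 3) to 54.9 ± 6.95 CPM (n = 3) in pMXs (edgeR, log2 0.38 ± 0.11, adjusted p = 0.00705), and Psmb5 (0.11, adjusted p = 0.448) and Psmb6 (0.04, adjusted p = 0.74) did not pass.

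**Figure D2:**
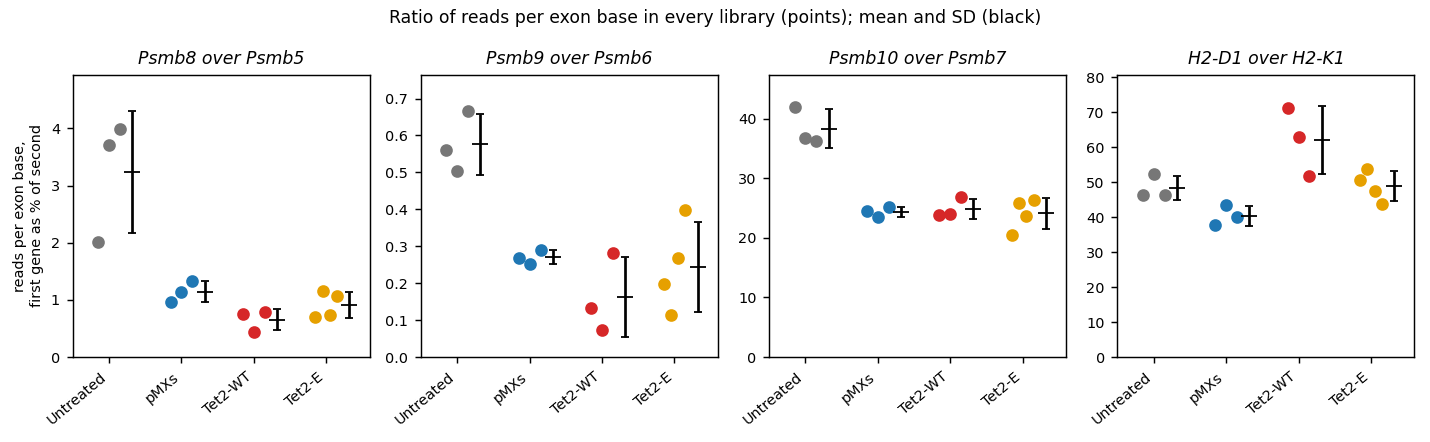
Reads per exon base of each immunosubunit as a percentage of the standard subunit it replaces, and of H2-D1 as a percentage of H2-K1, in every library (points; mean and SD in black; linear axes from 0). The 3 immunosubunit shares are higher in all untreated libraries than in any day 5 library, and H2-D1 over H2-K1 is highest in Tet2-WT, at 51.8 to 71.1%, where it overlaps Tet2-E and the untreated libraries.

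Peptide transport and loading genes went separate ways. TAP is a pair of subunits, Tap1 and Tap2. Tap1 was at 51.9, 49.2 and 50.8 CPM untreated, 51.6, 53.7 and 52.2 CPM in pMXs, 46.1, 44.8 and 50.6 CPM in Tet2-WT and 48.1, 41.5, 50 and 50.6 CPM in Tet2-E. The pMXs and untreated libraries overlapped, at a log2 difference of 0.05 ± 0.08 (edgeR, adjusted p = 0.557).
Tap2 was at 21.1, 19.4 and 20.4 CPM untreated, 5.39, 7.47 and 10.1 CPM in pMXs, 4.32, 4.36 and 6.74 CPM in Tet2-WT and 5.14, 4.43, 7.06 and 7.88 CPM in Tet2-E. Each day 5 library lay far below the untreated ones, and Tap2 fell by 1.42 ± 0.22 in pMXs (edgeR, adjusted p = 4.09e-05), the largest fall among the 10 genes in this comparison. The ratio of Tap1 to Tap2 reads was accordingly 2.46 to 2.53 in untreated MEFs and 5.19 to 10.7 at day 5.
Tapbp encodes tapasin, which holds empty class I molecules at the transporter. It was at 124, 111 and 124 CPM untreated, 59.5, 59.6 and 64.9 CPM in pMXs, 81, 73.7 and 69.4 CPM in Tet2-WT and 63.9, 59.2, 58.2 and 61 CPM in Tet2-E. Untreated MEFs stood above all day 5 libraries and the 3 Tet2-WT libraries above the other 7 of day 5. Tapbp fell by 0.97 ± 0.08 in pMXs against untreated (edgeR, adjusted p = 2.07e-08).

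Nlrc5, the transactivator of class I genes, was at 2.37, 3.17 and 4.28 CPM untreated, 1.97, 2.26 and 2.94 CPM in pMXs, 2.02, 1.98 and 2.63 CPM in Tet2-WT and 2.52, 2.42, 1.61 and 2.8 CPM in Tet2-E. All groups overlapped, and its log2 difference of -0.46 ± 0.26 in pMXs against untreated did not pass (edgeR, adjusted p = 0.121). It passed without untreated replicate 1, at -0.65 (adjusted p = 0.035). Per kilobase of exon, untreated MEFs held B2m at 500 ± 142 CPM (SD, n = 3), Tapbp at 41.4 ± 2.55, H2-K1 at 23.2 ± 1.83, Tap1 at 17.1 ± 0.46, Psmb10 at 14 ± 2, H2-D1 at 11.1 ± 0.159, Tap2 at 5.9 ± 0.237, Psmb8 at 1.84 ± 0.391, Psmb9 at 0.844 ± 0.0909 and Nlrc5 at 0.404 ± 0.118. The untreated libraries of neighbours in that order did not overlap. In pMXs, Tapbp (21.2 ± 1.06 CPM per kilobase, n = 3), H2-K1 (20.2 ± 3.01) and Tap1 (17.8 ± 0.373) came next to each other, and the range of H2-K1 overlapped those of both others.

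The other day 5 groups were also set against untreated MEFs, and share those control libraries. In Tet2-WT 6 of the 10 genes fell and 0 rose (35.3% of all genes tested were lower and 37.3% higher), with log2 changes of -2.11 for Psmb8, -1.99 for Tap2, -1.88 for Psmb9, -1.06 for B2m, -0.68 for Tapbp and -0.49 for H2-K1 (edgeR, adjusted p = 0.0195 for the last). H2-D1 (-0.15, adjusted p = 0.302), Psmb10 (-0.21, 0.11), Tap1 (-0.10, 0.254) and Nlrc5 (-0.57, 0.0525) did not pass. In Tet2-E 7 fell and 0 rose (36.1% lower and 36.7% higher among all genes), at -1.7 for Tap2, -1.66 for Psmb8, -1.09 for Psmb9, -0.99 for Tapbp, -0.91 for B2m, -0.47 for H2-D1 and -0.47 for H2-K1 (adjusted p = 0.017 for the last). Psmb10 (-0.23, 0.0606), Tap1 (-0.09, 0.303) and Nlrc5 (-0.49, 0.0714) did not pass. The H2-K1 calls were lost without untreated replicate 1 (adjusted p = 0.0578 in Tet2-WT and 0.0571 in Tet2-E) or 100 (0.0649 and 0.0651), without Tet2-WT replicate 1 or 2 (0.0826 and 0.0668) and without Tet2-E replicate 1 (0.0552). Within numbers 100 and 250, Psmb9 was no longer called in Tet2-WT (adjusted p = 0.0853) or Tet2-E (0.135), nor H2-K1 in Tet2-WT (0.104). Nlrc5 passed without untreated replicate 1 in both groups (0.0141 and 0.0188), without Tet2-WT replicate 250 (0.0367) and without Tet2-E replicate 250 (0.0449). Psmb10 passed without untreated replicate 100 (0.0209 and 0.0105).

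**Figure D3:**
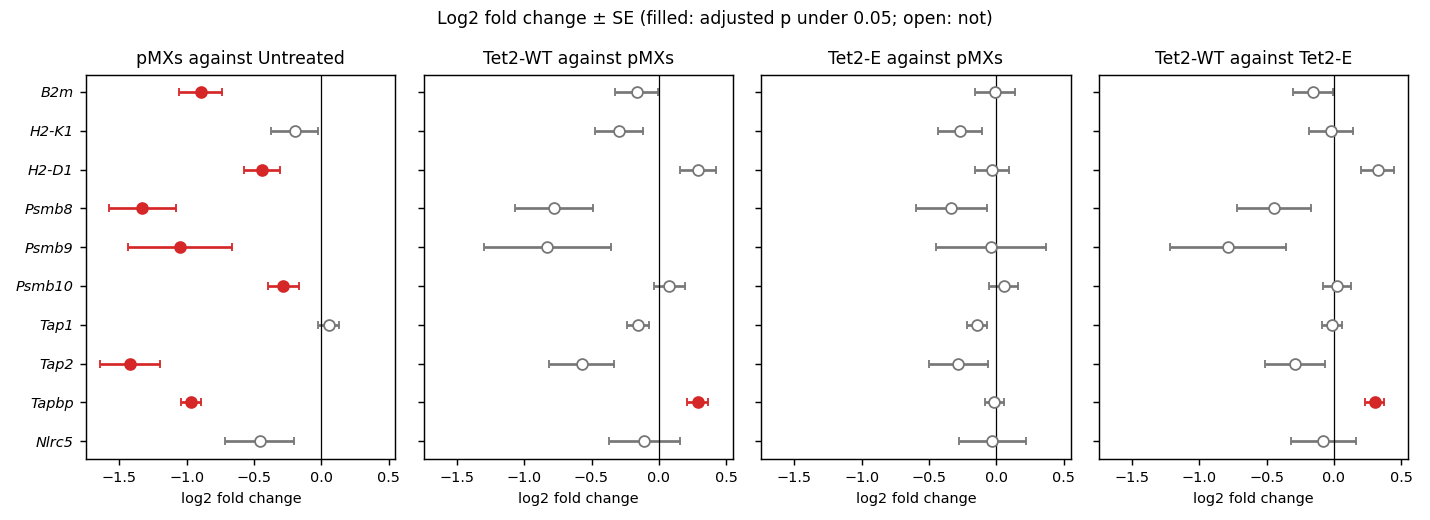
Log2 fold change (points) with its standard error (bars) of the 10 genes in 4 comparisons, from 1 edgeR fit, on a shared linear axis. Filled red points passed at an adjusted p under 0.05: 7 in pMXs against untreated, all below 0, and Tapbp alone in Tet2-WT against pMXs and against Tet2-E.

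Wild-type Tet2 went with a higher level of 1 of the 10 genes, Tapbp, and no lower one. Tapbp rose by 0.29 ± 0.08 on the log2 scale in Tet2-WT against pMXs, from 61.3 ± 3.08 CPM (SD, n = 3) to 74.7 ± 5.86 CPM (n = 3), with all 3 libraries above all 3 (edgeR, adjusted p = 0.0207). By the same rule 6.01% of all genes tested were higher and 6.52% lower, so a count of 1 in 10 is not read as particular to these genes. The log2 difference was 0.38 within replicate numbers 1 and 2, where replicate 2 is the only pMXs library. Within 100 and 250, where replicate 250 is the only Tet2-WT library, the difference was 0.16. The call was lost without pMXs replicate 2 (edgeR, adjusted p = 0.0685), pMXs replicate 100 (0.0898), Tet2-WT replicate 1 (0.121) or Tet2-WT replicate 2 (0.0587).

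The other 9 genes did not pass. H2-D1 was higher in all 3 Tet2-WT libraries than in any pMXs library (0.29 ± 0.13, edgeR adjusted p = 0.184), and passed with a term for the set of replicate numbers (0.38, 0.0257). Its difference was 0.63 within numbers 1 and 2, where pMXs replicate 2, with the lowest H2-D1 level of all libraries (13.5 CPM), stands alone. Within 100 and 250, where Tet2-WT replicate 250 stands alone, the H2-D1 difference was 0.18. Psmb8 (-0.78 ± 0.29, adjusted p = 0.0992), Psmb9 (-0.83 ± 0.47, 0.299) and Tap1 (-0.16 ± 0.08, 0.238) were lower in all 3 Tet2-WT libraries than in any pMXs library. The share of all genes tested that separate these groups is not given here. Such separations are therefore not read as particular to the 10 genes. Tap2 overlapped (-0.57 ± 0.24, adjusted p = 0.144) and passed with the replicate number as a block (-0.50, adjusted p = 0.032) and without Tet2-WT replicate 250 (-0.81, 0.047). H2-K1 (-0.30, 0.329), B2m (-0.17, 0.575), Psmb10 (0.08, 0.749) and Nlrc5 (-0.11, 0.848) overlapped too. The median of the 10 log2 differences was -0.16, beside 0 over all genes.

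The stalling mutant went with no called difference in any of the 10 genes. In Tet2-E against pMXs 0 of 10 passed with edgeR, 0 with DESeq2 and 0 at an unadjusted p under 0.05, in a comparison where 0.0205% of all genes tested were higher and 0.0274% lower. With so few calls among all genes, the 0 is not read as particular to the 10 genes. The largest log2 differences were -0.33 ± 0.26 for Psmb8 (adjusted p = 0.743), -0.28 ± 0.22 for Tap2 (0.742) and -0.27 ± 0.16 for H2-K1 (0.646). Tap1 was lower in all 4 Tet2-E than in all 3 pMXs libraries (-0.14 ± 0.07, adjusted p = 0.585), and the groups overlapped for the other 9. Tapbp differed by -0.02 ± 0.07 and H2-D1 by -0.03 ± 0.13.

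The 2 forms of Tet2 were then compared directly. Tapbp was higher in all 3 Tet2-WT than in all 4 Tet2-E libraries, and rose by 0.30 ± 0.07 (edgeR, adjusted p = 0.0203). It was the only 1 of the 10 that passed, beside 2.43% of all genes higher and 2.19% lower. This call was lost without Tet2-WT replicate 1 (0.149), Tet2-WT replicate 2 (0.0739) or Tet2-E replicate 100 (0.0576), and within replicate numbers 100 and 250 (0.22, 0.357), where 1 Tet2-WT library stands against 2. H2-D1 was also higher in all Tet2-WT than in all Tet2-E libraries (0.32 ± 0.12, adjusted p = 0.18), and passed with the replicate number as a block (0.36, adjusted p = 0.0431). Psmb9 (-0.79 ± 0.43, 0.43) and Psmb8 (-0.44 ± 0.28, 0.522) had the largest differences of the rest.

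Within the heavy chains, the ratio of H2-D1 to H2-K1 reads was 0.587, 0.664 and 0.588 untreated, 0.478, 0.551 and 0.509 in pMXs, 0.903, 0.8 and 0.657 in Tet2-WT and 0.641, 0.681, 0.601 and 0.554 in Tet2-E. Tet2-WT lay above pMXs in all 3 libraries, a log2 difference of 0.61 (2-sided exact permutation p = 0.1, the smallest that 3 against 3 allows, and 0.15 adjusted over 6 comparisons). Against Tet2-E the difference was 0.34 (exact permutation p = 0.0571, adjusted 0.15), with Tet2-WT replicate 250 inside the range of Tet2-E. These permutations do not use the replicate numbers. Within numbers the ratio was higher in Tet2-WT than in Tet2-E in all 3 pairs (0.903 against 0.641, 0.8 against 0.681 and 0.657 against 0.554), and than in pMXs in both pairs they share (0.8 against 0.478 and 0.657 against 0.509). The ratio was chosen after these values were seen, and reads that match both genes bear on it.

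At day 5, levels of 3 of the 10 genes differed with the replicate number. The labels state that libraries were prepared in 2 sets without naming the members, and whether the numbers follow those sets is not given in the sources used here. Over the 10 day 5 libraries, with the groups in the fit, numbers 100 and 250 stood above 1 and 2 for H2-K1 (mean 34 against 24.5 CPM, log2 0.44 ± 0.07, edgeR adjusted p = 0.000489), Tap2 (7.84 against 4.73 CPM, 0.64 ± 0.11, 0.00066) and H2-D1 (19.4 against 17 CPM, 0.28 ± 0.08, 0.0203). The other 7 did not pass, with Psmb9 at 0.80 ± 0.34 (0.132) and Tap1 at 0.12 ± 0.05 (0.135). Among all genes tested 6.48% were higher and 7.93% lower in numbers 100 and 250. In untreated MEFs, where 1 library is numbered 100, Tap2 was at 20.4 CPM there and 21.1 and 19.4 CPM in the others. The pMXs group holds 1 library numbered 1 or 2 and Tet2-WT holds 2, so that the vectors are not balanced over the numbers.

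**Figure D4:**
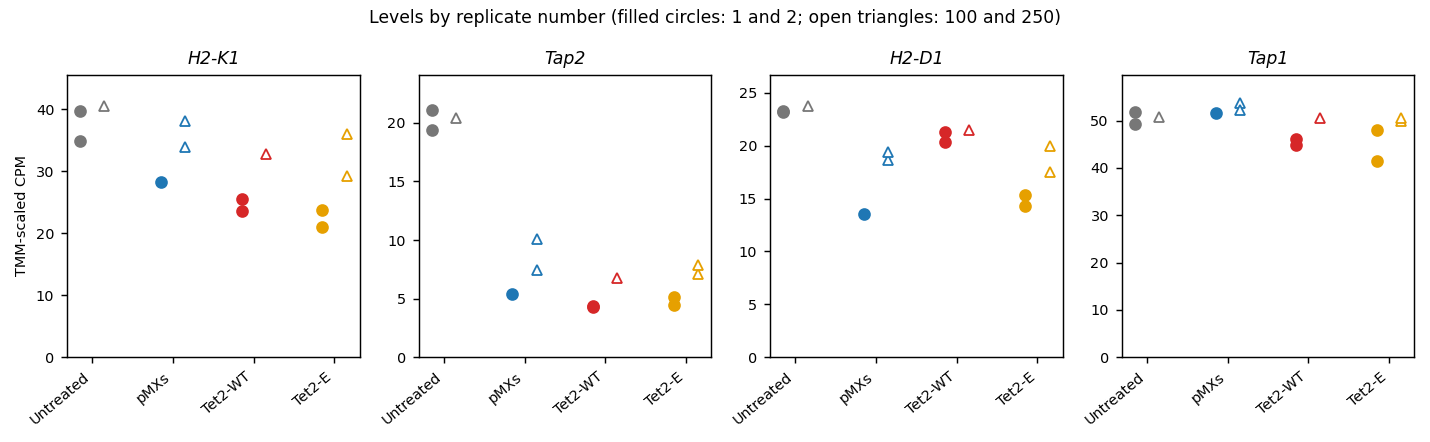
Levels of H2-K1, Tap2, H2-D1 and Tap1 in every library (TMM-scaled CPM, linear axes from 0), with filled circles for replicate numbers 1 and 2 and open triangles for 100 and 250. In each day 5 group the triangles of H2-K1, Tap2 and H2-D1 lie above the circles, and for Tap2 the single untreated triangle, at 20.4 CPM, lies between the circles.

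A list of 18 other genes drawn up around the pathway was tested in full. In pMXs against untreated 3 rose and 7 fell, with a median log2 change of -0.10 beside 0 over all genes, of which 35% rose and 35% fell. These counts are not read as particular to the list. Thop1, a cytosolic peptidase that destroys peptides, rose from 45.3 to 134 CPM (1.57 ± 0.11), and Ide, another peptidase, rose by 0.88 ± 0.08. Tapbpl, the tapasin-related peptide editor, fell from 13.1 to 6.66 CPM (-0.98 ± 0.12). Ggt7, which was in the list but has no step in the pathway named here, fell by 2.33 ± 0.27. In Tet2-WT against pMXs 1 of the 18 passed, Ide, which rose from 118 to 173 CPM (0.55 ± 0.08), and it rose by 0.29 ± 0.07 against Tet2-E. Of the 14 subunits of the standard proteasome core 7 rose and 0 fell in pMXs against untreated, with a median of 0.18 (35% of all genes tested were higher), Psmb7 and Psma5 (0.38 ± 0.14) at the top. None of them passed in Tet2-WT or Tet2-E against pMXs. Of all genes tested 6.01% were higher and 6.52% lower in Tet2-WT against pMXs, and 0.0205% and 0.0274% in Tet2-E against pMXs.

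Of 27 nonclassical class I genes and relatives 14 were tested, and in pMXs against untreated 9 fell and 0 rose (median -1.05), where 35% of all genes tested were lower. Fcgrt, the neonatal Fc receptor, which also pairs with beta-2-microglobulin, fell from 47.9 to 6.12 CPM (-2.96 ± 0.38), and Hfe, of iron sensing, fell by 1.44 ± 0.25. The list holds near-identical copies too. In the comparisons between day 5 groups 0 of the 14 passed. Of all genes tested 6.01% were higher and 6.52% lower in Tet2-WT against pMXs. The shares were 2.43% and 2.19% in Tet2-WT against Tet2-E, and 0.0205% and 0.0274% in Tet2-E against pMXs. The 0 is not read as particular to the list. Of 11 class II genes, which serve antigen from outside the cell, 6 were tested and 3 rose and 2 fell in pMXs. H2-Aa rose from 0.0584 to 1.84 CPM (4.76 ± 0.41) and H2-Ab1 by 1.24 ± 0.32, while H2-DMb1 and H2-DMa, which load peptides onto class II, fell by 1.81 and 1.53.

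Of 20 regulators of class I genes tested, 8 rose and 8 fell in pMXs against untreated, close to the 35% higher and 35% lower among all genes tested. Irf1, an interferon-induced activator, fell from 15.3 to 8.5 CPM (-0.85 ± 0.13), Irf7 fell by 1.99 ± 0.21 and Stat2 by 1.7 ± 0.09. Rfx5, of the X box complex, rose from 37.5 to 63 CPM (0.75 ± 0.10), and Suz12 and Ezh2, of the Polycomb complex that can silence class I genes, rose by 1.34 ± 0.08 and 1.32 ± 0.09. Among 11 interferon receptor and signalling genes tested 1 rose, the feedback inhibitor Socs3 (1.94 ± 0.15), and 7 fell, led by the receptor chains Ifngr2 (from 139 to 35.5 CPM, -1.97 ± 0.09) and Il10rb (-1.01 ± 0.11). The interferon genes Ifnb1, Ifng, Ifna4, Ifnl2 and Ifnl3 did not pass the filter on low counts. Of 29 interferon response genes tested 22 fell and 3 rose, where 35% of all genes tested were lower. Among those with a mean of at least 1 CPM in 1 group, Ifit3 (-4.55 ± 0.24) and Iigp1 (-4.20 ± 0.64) had the largest falls, with the nucleic acid sensor Zbp1 (3.09 ± 0.36) and the virus tether Bst2 (0.87 ± 0.15) among those that rose.

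The regulators and interferon genes were then read in the comparisons between day 5 groups. In Tet2-WT against pMXs 9 of the 29 interferon response genes rose and 0 fell, where 6.01% of all genes tested were higher and 6.52% lower. Of those with a mean of at least 1 CPM in 1 group, Oas1a (from 0.244 to 1.08 CPM, 2.10 ± 0.47) and Isg15 (from 0.703 to 2.3 CPM, 1.78 ± 0.29) rose most. Whether this list differs from the class I genes was not tested. Of the 20 regulators 0 passed, and of the receptor and signalling genes Jak2 rose (0.34 ± 0.10) and Ifngr2 fell (-0.48 ± 0.09, from 35.5 to 25.5 CPM). Against Tet2-E, Ifngr2 fell by 0.40 ± 0.09, and 3 of the 29 interferon response genes rose, among them Isg15 (1.21 ± 0.25) and Xaf1 (0.92 ± 0.17). Of all genes tested 2.43% were higher and 2.19% lower in that comparison. No gene of these lists passed in Tet2-E against pMXs, where 0.0205% of all genes tested were higher and 0.0274% lower. Of the 6 macrophage markers tested, Laptm5, Itgam, Cd68 and Csf1r rose in Tet2-WT against pMXs, while Lyz2 was at 0.044 and Cd53 at 0.0124 CPM in Tet2-WT. Their part in these values was not tested.

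Over the 10 day 5 libraries the genes most like H2-K1 in their log2 CPM were H1f0 (Pearson r = 0.967), Cln6 (0.965), Cox6b2 (0.963), Pcolce (0.961) and R3hdm4 (0.956). Those most like Nlrc5 were 2700062C07Rik (0.924), Chchd6 (0.905), Dym (0.88), Lyrm2 (0.867) and Copg2 (0.862). These values are descriptions picked as the highest of all genes tested, and libraries share vectors and replicate numbers. Among the 45 pairs of the 10 genes themselves the median r was 0.164, with 11 pairs above 0.5 and 4 below -0.5.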

How the data were processed

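Bulk RNA-seq was read from 1 table of raw counts per gene, which the authors made with STAR 2.6.1a on mm9 and featureCounts 1.6.2, per the submitters' processing notes. Listed there too are DESeq2 1.26.0, R 3.6.2, bedtools 2.27.1 and SAMtools 1.7. Strand setting and annotation are not given in the sources used here, so antisense or overlapping genes could share reads. Total counts ran from 14052646 to 26265382 per library. In R 4.3.3, edgeR 4.0.16 kept 14607 genes (filterByExpr, count minimum 10, total minimum 15), scaled libraries by TMM and fitted 1 robust quasi-likelihood model with a mean for each of 4 groups, tested in 6 comparisons. P-values were adjusted by Benjamini-Hochberg over all genes within a comparison. The SE is the absolute log2 change over the square root of F. The biological coefficient of variation was 0.102, and the chi-square per degree of freedom between replicates was 6.3 to 40.9, so no 2 libraries agreed within counting noise. The script was tested on simulated counts.

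The members and lists were chosen with earlier results of these data known. All 10 genes are named, and from each list up to 2 genes that rose and 2 that fell in a comparison by largest log2 change with a mean of at least 1 CPM in 1 group, plus Irf1, Rfx5, Psmb5, Psmb6, Psmb7, Tet2 and Pou5f1. One further gene of that rule and one motif are not reported here. For likeness the 5 genes of highest r of log2(CPM + 0.5) were taken. Exon lengths came from GENCODE M21 and promoters were aligned with Biopython 1.88. The test of the replicate-number term itself, the H2-D1 to H2-K1 ratio and the motif spacing were added after values were seen.

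Labels share replicate numbers. Over the 8 same-numbered pairs of day 5 libraries, deviations from group means correlated at 0.13 to 0.44. Pairs of the other set of numbers ran from -0.53 to -0.09, and the other number of the same set from 0.08 to 0.46. These ranges set the 2 sets of numbers apart, but not the same number from the other number of its set. The main fit held no term for the number or its set, and each was fitted as an alternative. With untreated libraries the 7 same-numbered pairs ran from -0.06 to 0.23 and were not taken as paired. Alternatives were RLE size factors, DESeq2 1.42.0, no filter, 1 CPM in 3 libraries, the block, a term for the set of numbers, fits of 2 groups, contrasts within sets and leaving out each library.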

Additional observations from a re-analysis of the deposited data

Results flagged for a closer look

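In the group of 4 Tet2-E libraries, the Tet2 level of replicate 100, at 581 CPM, stood apart from the other 3, with a gap to the nearest of 0.873 of the group's range. None of the 10 class I genes met the same rule in that group, where 18 genes were checked, and chance flags about 1 in 20 groups. Without that library the comparison of Tet2-E with pMXs still called 0 of the 10 genes.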

How the results depend on the processing

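Over all alternatives tried, the count of the 10 genes called was 5 to 8 in pMXs, 4 to 7 in Tet2-WT and 6 to 8 in Tet2-E against untreated, and 0 in Tet2-E against pMXs. Leaving out each library gave 0 to 2 genes for Tet2-WT against pMXs and 0 to 1 for Tet2-WT against Tet2-E. The replicate block and the term for the set of numbers each gave 2 genes in both these comparisons. The contrast within numbers 1 and 2 gave 2 genes in Tet2-WT against Tet2-E, with 2 libraries on each side. In the other contrasts within numbers for these comparisons 1 library stands alone on a side, so their counts are not given. Against untreated MEFs the replicate block called H2-K1 (-0.36, adjusted p = 0.00412) and Nlrc5 (-0.62, 0.0369) in pMXs and no longer Psmb10 (-0.24, 0.0731), and called Nlrc5 in Tet2-WT (-0.68, 0.0224) and Tet2-E (-0.61, 0.0229). Psmb9 had 3 to 22 reads at day 5, which limits what can be seen there. Of the single-gene values 807 kept direction and side of the threshold, 35 lost and 27 gained the call and 55 changed sign. The cause was not tested.

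The changes of sign were all in differences that did not pass before or after. With the block, log2 differences of Tet2-E against pMXs were 0.05 for B2m and 0.01 for Nlrc5, and of Tet2-WT against Tet2-E 0.02 for H2-K1 and -0.02 for Psmb10. With the set term, Tet2-E against pMXs gave 0.03 for B2m, 0 for H2-D1, 0.01 for Nlrc5 and 0.01 for Psmb9, and Tet2-WT against Tet2-E gave 0.05 for H2-K1, -0.01 for Psmb10 and 0 for Tap1. Within numbers 1 and 2, Tet2-E against pMXs gave 0.22 for B2m, 0.13 for H2-D1, 0.33 for Nlrc5, -0.17 for Psmb10 and 0.05 for Tapbp, Tet2-WT against pMXs 0.02 for Nlrc5 and -0.06 for Psmb10, and Tet2-WT against Tet2-E 0.13 for H2-K1 and 0.02 for Tap1. Within 100 and 250, Tet2-WT against Tet2-E gave 0.02 for B2m, 0.01 for H2-K1, 0.25 for Nlrc5, -0.12 for Psmb10 and 0.01 for Tap1, Tet2-WT against pMXs 0.05 for Nlrc5, Tet2-E against pMXs 0.34 for Psmb9, Tet2-E against untreated 0.03 for Psmb10 and Tet2-WT against untreated 0 for Tap1. Leaving out each library, Tet2-E against pMXs ran from -0.11 to 0.04 for B2m, -0.18 to 0.05 for H2-D1, -0.15 to 0.13 for Nlrc5, 0 to 0.15 for Psmb10, -0.37 to 0.15 for Psmb9 and -0.05 to 0.02 for Tapbp. Tet2-WT against Tet2-E ran from -0.17 to 0.14 for H2-K1, -0.24 to 0.04 for Nlrc5, -0.01 to 0.08 for Psmb10 and -0.07 to 0.02 for Tap1, and Tet2-WT against pMXs from -0.25 to 0.05 for Nlrc5.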
